A study of Mus musculus with 12 samples.

Results

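The genes described here encode the dynein motors of motile cilia, the factors that assemble them, and the cilia- and flagella-associated proteins of the axoneme. They were taken as all gene symbols in the count table that begin with Dnah, Dnaaf, Dnali, or Cfap followed by a number and at most 1 letter, and 49 of the 55418 genes qualified. They were measured in brainstem RNA from 12 outbred CFW mice at P15, with 3 females and 3 males given saline and 3 females and 3 males given morphine. The study's methods give 15 mg/kg morphine, or saline, 2 times daily from P1 to P14, with brainstem (medulla and pons) collected 16 h after the last injection, during spontaneous withdrawal. Each mouse gave 1 library, and no mouse carried an engineered allele.

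A motile cilium is built on an axoneme of 9 doublet microtubules around a central pair. Outer dynein arms power the beat, inner dynein arms shape it, and the radial spokes and central apparatus regulate both. In the brain the ependymal cells that line the ventricles carry tufts of such cilia, which move cerebrospinal fluid, and the choroid plexus epithelium that secretes the fluid is also multiciliated. Multiciliated cells switch these genes on through FOXJ1 and the RFX transcription factors, which bind X-box motifs near gene starts.

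Libraries held between 27850565 and 48097947 counts. The library labelled morphine male 6 went against its label, with 380 CPM (counts per 1e6, after TMM scaling) of *Xist* and 12.8 CPM of the Y-linked *Ddx3y*, against at most 2.71 CPM of *Xist* and at least 118 CPM of *Ddx3y* in the other 5 males. Females held 547 to 970 CPM of *Xist* and 0.0576 to 0.729 CPM of *Ddx3y*, so this library lay between the sexes. It was kept among the males, as labelled. Saline male 3 differed from saline males 1 and 2. Summed neuron markers were 3810, 3500, and 4560 CPM in saline males 1 to 3, against 3410 to 3660 CPM in morphine males. For oligodendrocyte markers saline males 1 and 2 were the ones apart, at 57400 and 60200 CPM. Saline male 3 held 38200 CPM of these and morphine males 33500 to 42400 CPM. Leaving saline male 3 out raised the share of all genes passing the test in males from 2.99% to 28.6%, so results with and without each library are given where they differ. As a check of the tissue, *Slc6a5*, the glycine transporter of brainstem and spinal inhibitory neurons, lay between 479 and 638 CPM, and *Tph2*, which marks the serotonin neurons of the raphe, between 20.2 and 41.6 CPM. The 5 testis germ cell markers, included because many of these genes also build the sperm tail, summed to at most 0.262 CPM.

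A short promoter motif was more frequent in the set than over all genes, though most of the searched genes lacked it. RefSeq promoters on GRCm38.p6, which run from 250 bases before to 50 after an annotated start, were available for 40 of the 49 genes. They were searched on both strands for the half-site of the X-box, GTTGCC or GTTACC, and 19 of the 40 genes (47.5%) held it in at least 1 promoter. Of all 27025 genes in the table, 20.8% did. The complete palindrome, GTTNCC and GGNAAC with at most 3 bases between them, was present in 0.804% of all promoters and in 1 of these genes, *Cfap298*. A match is a string of letters and not a measured binding site. The sequences below surround the half-site nearest the start (capitals, read on the strand of the gene, where GGCAAC is GTTGCC on the other strand). The first 3 belong to genes that passed a test with morphine and have an entry. Next comes *Dnah10*, an inner arm heavy chain with 3 half-sites.
Cfap46: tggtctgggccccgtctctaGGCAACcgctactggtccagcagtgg
Cfap74: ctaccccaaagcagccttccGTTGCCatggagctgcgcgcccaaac
Cfap58: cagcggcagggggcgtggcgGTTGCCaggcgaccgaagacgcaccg
Dnah10: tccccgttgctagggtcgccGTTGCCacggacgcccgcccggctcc
They lie at chr7:139683799-139683844 (minus strand), chr4:155409183-155409228 (plus), chr19:47937633-47937678 (plus), and chr5:124725075-124725120 (plus). The half-site began 9 bases before the start of *Cfap46*, 59 bases before that of *Cfap58*, and, for the 2 annotated starts of *Cfap74*, 13 bases after the first and 37 before the second. The whole promoters of *Cfap46* (chr7:139683766-139684065) and *Cfap74* (chr4:155408940-155409239, from the first start) follow, since both genes passed the test in males, and that of *Cfap298* (chr16:90934800-90935099, minus strand) because it holds the complete palindrome in 2 places.
Cfap46: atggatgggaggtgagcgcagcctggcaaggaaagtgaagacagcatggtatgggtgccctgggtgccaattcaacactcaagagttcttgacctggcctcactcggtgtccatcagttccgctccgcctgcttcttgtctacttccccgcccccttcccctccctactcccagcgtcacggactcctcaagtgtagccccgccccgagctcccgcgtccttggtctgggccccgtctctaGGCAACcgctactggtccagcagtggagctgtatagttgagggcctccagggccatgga
Cfap74: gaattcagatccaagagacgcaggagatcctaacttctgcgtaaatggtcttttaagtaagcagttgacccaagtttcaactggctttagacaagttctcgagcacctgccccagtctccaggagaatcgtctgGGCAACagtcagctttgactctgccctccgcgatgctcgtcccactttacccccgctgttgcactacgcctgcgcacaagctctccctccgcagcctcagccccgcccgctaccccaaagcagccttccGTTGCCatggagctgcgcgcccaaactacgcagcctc
Cfap298: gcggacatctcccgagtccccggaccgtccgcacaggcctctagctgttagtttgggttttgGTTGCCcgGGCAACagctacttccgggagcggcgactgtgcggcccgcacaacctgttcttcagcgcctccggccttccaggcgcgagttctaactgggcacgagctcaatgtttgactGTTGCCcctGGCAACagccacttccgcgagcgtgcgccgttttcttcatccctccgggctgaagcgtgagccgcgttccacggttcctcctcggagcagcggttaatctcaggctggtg
*Cfap74* held another half-site 116 bases before the first start and 166 before the second. The palindromes of *Cfap298* began 188 and 69 bases before its start, with half-sites at positions -188, -180, -69, and -60. Among the genes without these letters in the window were *Dnah6*, *Dnah9*, and *Dnah12*. *Cfap65*, *Cfap157*, *Cfap299*, *Cfap53*, *Cfap54*, *Cfap73*, *Cfap97*, *Dnaaf1*, and *Dnah3* were not analysed here for promoters.

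Most of the set was scarce in the brainstem, and the few abundant genes were not axonemal dyneins. Per kilobase of exon, *Cfap36* stood first with a mean of 42.8 CPM per kb over the 12 libraries, followed by *Cfap97* (8.48) and *Cfap20* (7.57), and 37 of the 49 genes lay under 0.5 CPM per kb. *Cfap36* encodes a binding partner of the small GTPase ARL3, and *Cfap20* a protein of the inner junction of the doublet that is also found outside cilia. These 3 genes held between 54.3% and 71.1% of the summed CPM of the 49 genes in each library. On the same scale the ependymal markers ran from 0.0842 CPM per kb for *Mia* to 303 for *S100b*, which glia also express. *Foxj1*, the master regulator of motile cilia, had a mean of 2.28 CPM per kb, below 5 of the 49 genes, *Tmem212* 0.848, and *Ccdc153* 0.376, against a median of 0.246 over the 49 genes. In bulk tissue fewer cells of a type cannot be told apart from less RNA per cell.

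**Figure D1:**
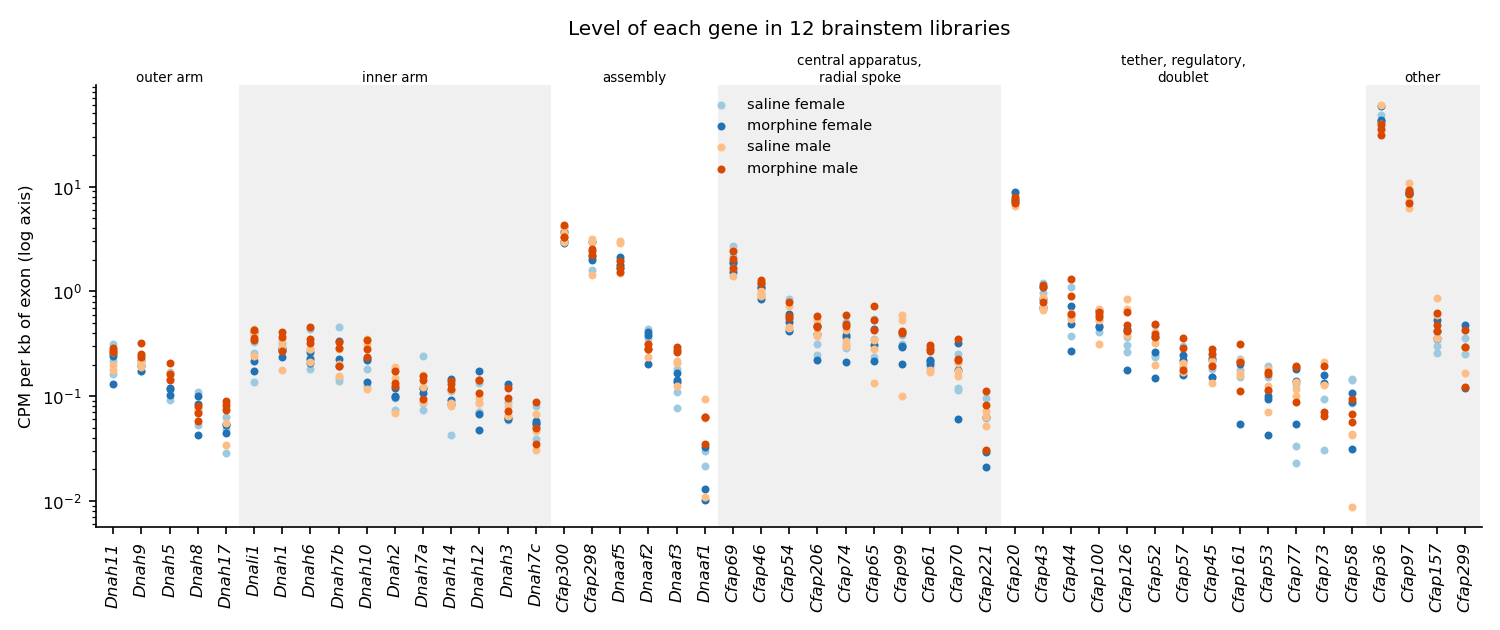
Level of each of the 49 genes, in CPM per kb of exon on a log axis, with 1 point per library colored by treatment and sex and genes grouped by role. Values of 0 are not drawn. *Cfap36* lies near 42.8 CPM per kb, and 37 genes have a mean under 0.5.

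Within each role the most abundant gene per kilobase was *Dnah11* for the outer arm heavy chains (0.233 CPM per kb), *Dnali1*, the inner arm light chain, for the inner arm (0.311), *Cfap300* for the assembly factors (3.57), *Cfap69* for the central apparatus and radial spokes (1.95), *Cfap20* for the tether, regulatory, and doublet proteins, and *Cfap36* for the remaining 4 genes. The outer arm heavy chain *Dnah9* lay close to *Dnah11*, at 0.219 CPM per kb. *Dnah8* and *Dnah17*, outer arm heavy chains best known from the sperm tail, were at 0.0743 and 0.059, and the lowest tested gene was *Dnah7c* at 0.0548 CPM per kb. Another 3 genes were too low for the test over all 12 libraries. *Cfap73*, a regulatory protein of the inner arms, had 0 to 9 counts per library, *Dnaaf1*, an assembly factor, 0 to 9, and *Cfap221*, a central apparatus protein, 2 to 10. *Cfap53* was also not tested in females, nor *Cfap58* in males.

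Some counts are shared with other genes. Of the 49, 27 have exons that overlap another gene, 8 of them over more than 10% of their exon bases. *Dnaaf2* (71.4%) and *Cfap298* (53.6%) are the extreme cases. The strand setting of the counting is not given in the sources used here, so opposite-strand reads cannot be told apart from those of the gene. *Dnah7a*, *Dnah7b*, and *Dnah7c* are near copies on chromosome 1 and share 19.1%, 14.3%, and 23.9% of their 100-base stretches with each other.
Dnah7a: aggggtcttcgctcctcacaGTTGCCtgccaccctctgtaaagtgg
Dnah7b: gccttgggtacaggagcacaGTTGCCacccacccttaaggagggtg
Dnah7c: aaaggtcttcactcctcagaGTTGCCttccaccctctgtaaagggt
These promoter windows (chr1:53706959-53707004 minus strand, chr1:46066670-46066715 plus, and chr1:46425279-46425324 plus) each hold GTTGCC (capitals), at positions -200, -163, and -219 from the start. *Dnah7b* was the most abundant of these copies at 4.92 CPM on average, and the split of reads between them is uncertain.

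With both sexes combined and sex as a covariate, morphine changed none of the 46 tested genes by the thresholds of the study (a log2 fold change beyond 0.26 either way with an unadjusted p under 0.05), while 1.19% of all 18608 genes passed. The Wald test of DESeq2 also gave 0, no gene of the set had an unadjusted p under 0.05 with either tool, and the smallest adjusted p in edgeR's quasi-likelihood test was 0.9999. The log2 fold changes ran from -0.30 to 0.68, 33 were positive, and their median was 0.12, against -0.02 over all genes. The 6 saline and 6 morphine libraries overlapped for every gene of the set. Over all genes, 0.0107% had every morphine library above every saline library and 0.0322% every one below.

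The smallest p in each role came from genes with small or noisy differences. *Dnaaf3*, an assembly factor, lay between 0.17 and 0.477 CPM in saline (median 0.342) and between 0.307 and 0.654 CPM in morphine (median 0.479), with a log2 fold change of 0.47 ± 0.25 (SE, unadjusted p = 0.0842 in edgeR, adjusted p = 0.9999). *Cfap46* ranged from 8.39 to 10.5 CPM in saline (median 8.65) and from 7.74 to 11.9 CPM in morphine (median 10.6), with a log2 fold change of 0.21 ± 0.12 (unadjusted p = 0.101 in edgeR). The saline range lay within the morphine range. *Cfap77*, a protein inside the doublet microtubule, had 2 to 17 counts per library and a log2 fold change of 0.68 ± 0.41 (unadjusted p = 0.124 in edgeR). Among the dynein heavy chains the smallest p belonged to *Dnah14* in the inner arm (0.37 ± 0.24, unadjusted p = 0.142 in edgeR) and *Dnah17* in the outer arm (0.35 ± 0.24, unadjusted p = 0.17 in edgeR), and for *Cfap36* the log2 fold change was -0.08 ± 0.16 (unadjusted p = 0.638 in edgeR). These values rest on 6 mice per treatment, and all 6 genes overlapped between treatments.

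In males the set leaned upward. Morphine raised 3 of 45 tested genes and lowered none, with 2.99% of all 18166 genes passing in either direction and 1.92% passing upward. All 3 belong to the central apparatus and radial spoke class, where 3 of 9 tested genes passed. Of the 45 log2 fold changes 38 were positive, with a median of 0.24 against -0.06 over all genes. After adjustment none of the 3 passed (adjusted p = 0.9999 for each in edgeR).

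*Cfap65* had the largest change. It encodes a central apparatus protein that is required for sperm motility (chr1:74902071-74935599, minus strand, GRCm38). It lay at 2.71, 2.21, and 1.04 CPM in saline males 1 to 3 and at 3.36, 5.64, and 4.16 CPM in morphine males 4 to 6. Every morphine male was above every saline male, and saline male 3 was the lowest of all 12 libraries. The means were 1.99 ± 0.857 and 4.39 ± 1.16 CPM (SD, n = 3 each), a log2 fold change of 1.13 ± 0.38 (SE, unadjusted p = 0.0195 in edgeR, adjusted p = 0.9999). Without saline male 3 the log2 fold change was 0.865 (unadjusted p = 0.00823, adjusted p = 0.0608 in edgeR), and without morphine male 5 it was 0.967 and did not pass (unadjusted p = 0.0647 in edgeR). Without morphine male 6, the library between the sexes, it was 1.16 (unadjusted p = 0.0401 in edgeR). The genes of the set that passed in males were then *Cfap65*, *Dnah12*, and *Cfap44*, 3 of 45 tested, with 2.47% of all genes passing.

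*Cfap74* and *Cfap46* encode neighboring proteins of the same projection of the central apparatus. *Cfap74* (chr4:155409190-155466823, plus strand) measured 4.23, 3.35, and 2.97 CPM in saline males 1 to 3 and 4.61, 5.93, and 4.9 CPM in morphine males 4 to 6. The groups did not overlap, though saline male 1 and morphine male 4 were close. The log2 fold change was 0.54 ± 0.22 (SE, unadjusted p = 0.0409 in edgeR), and 4.6% of its exon bases overlap a gene on the opposite strand. *Cfap46* (chr7:139600951-139683817, minus strand) measured 9.39, 8.64, and 8.39 CPM in saline males and 11.2, 11.9, and 11.2 CPM in morphine males, the clearest separation of the 3 relative to its spread. Its log2 fold change was 0.37 ± 0.15 (SE, unadjusted p = 0.0474 in edgeR). Both genes lost the call when saline male 2 or any 1 morphine male was left out, with p between 0.0592 and 0.121 in edgeR, and *Cfap46* also when saline male 1 was left out (unadjusted p = 0.0775). Both kept their direction in each of these fits.

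**Figure D2:**
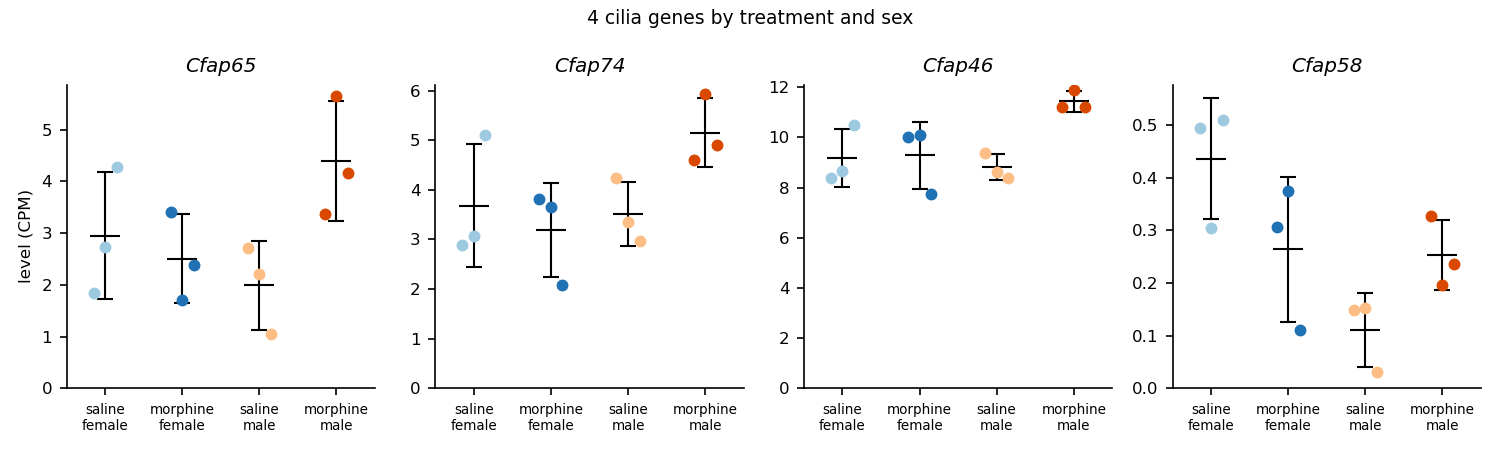
Level (CPM) of the 4 genes that passed the test in males or in the interaction of treatment and sex. Points are single libraries and bars are the mean and SD of 3. For *Cfap65*, *Cfap74*, and *Cfap46* the 3 morphine males lie above the 3 saline males, and for *Cfap58* all values are at or under 0.51 CPM.

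The separation of the male groups went beyond these 3 genes. In 9 of 45 tested genes every morphine male lay above every saline male, and in none did every one lie below. Over all genes the shares were 5.04% above and 4.06% below. An exact two-sided permutation test of 3 against 3 cannot give a p under 0.1, so single genes are not called from this. Besides the 3 above, they were *Dnah6*, *Dnah12*, and *Dnah14* in the inner arm, *Dnah9* in the outer arm, *Dnaaf3*, and *Cfap70* (named after their values were seen). *Dnah6* measured 3.7, 2.78, and 3.71 CPM in saline males and 6.09, 4.66, and 4.22 CPM in morphine males, a log2 fold change of 0.55 ± 0.23 (unadjusted p = 0.0519 in edgeR). *Dnah9* measured 3.37, 3.22, and 3.06 against 5.08, 4.03, and 3.81 CPM (0.41 ± 0.20, unadjusted p = 0.074 in edgeR). Under scaling by total counts 12 genes separated upward, with 10.1% of all genes, and leaving out any 1 male gave 11 to 15, with 6.85% to 18% of all genes. Without saline male 3 there were 15 above and 4 below, while 3261 and 5549 of all 18166 genes did so.

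By role, the inner arm genes were the most uniform in males. All 11 had a positive log2 fold change, from 0.06 to 0.55 with a median of 0.33, and none passed the test. Among the 11 are *Dnah7a*, *Dnah7b*, and *Dnah7c*, near copies between which the split of reads is uncertain. The outer arm heavy chains had a median of 0.36 (4 of 5 positive), the central apparatus and radial spoke genes 0.37 (8 of 9 positive), and the tether, regulatory, and doublet genes 0.27 (10 of 11 positive). In the last class *Cfap44*, which tethers an inner arm dynein to the doublet, came closest to the threshold at 0.68 ± 0.29 (unadjusted p = 0.052 in edgeR). The assembly factors (median 0.02, 3 of 5 positive) and the 4 remaining genes (median -0.14, 2 of 4 positive) lay nearer 0 or below it. Scaling by total counts moved the median of all genes in males from -0.06 to 0.06. Such scaling shifts all genes by about the same amount, so the distance of the members from that median could hardly change. It was 0.301 under TMM and 0.305 under total counts.

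In females the set did not rise. None of 45 tested genes passed in edgeR, against 1.81% of all 18109 genes, and none had an unadjusted p under 0.05 there or in DESeq2. Of the log2 fold changes 16 were positive, and the median was -0.08, against -0.01 over all genes. Every morphine female lay above every saline female for 1 gene, *Cfap157* (2.78% of all genes), and below for 2, *Cfap300* and *Cfap99* (2.87% of all genes), named after their values were seen. *Cfap300*, which helps bring dynein arms to the axoneme, measured 5.94, 5.9, and 6.62 CPM in saline females 4 to 6 and 5.87, 4.64, and 4.84 CPM in morphine females 1 to 3 (log2 fold change -0.27 ± 0.16, unadjusted p = 0.123 in edgeR). The nearest values of the 2 groups differed by less than the spread within either. The 3 genes that passed in males had female log2 fold changes of -0.25 ± 0.35 (*Cfap65*), -0.21 ± 0.30 (*Cfap74*), and 0.01 ± 0.16 (*Cfap46*).

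The female median rested on 1 library. Saline female 6 was the highest of the 12 libraries for 8 genes, among them *Dnah7b*, at 9.12 CPM against 2.8 and 3.01 CPM in the other saline females, and *Cfap69*. Without it the median turned from -0.08 to 0.131 and 2 of 45 genes passed upward, *Dnah7b* (0.80) and *Cfap77* (2.08), with 1.27% of all genes passing. Without saline female 4 the median was -0.186, and 2 of 46 genes, *Cfap69* (-0.486) and *Cfap44* (-0.795), passed downward, with 7.95% of all genes passing.

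**Figure D3:**
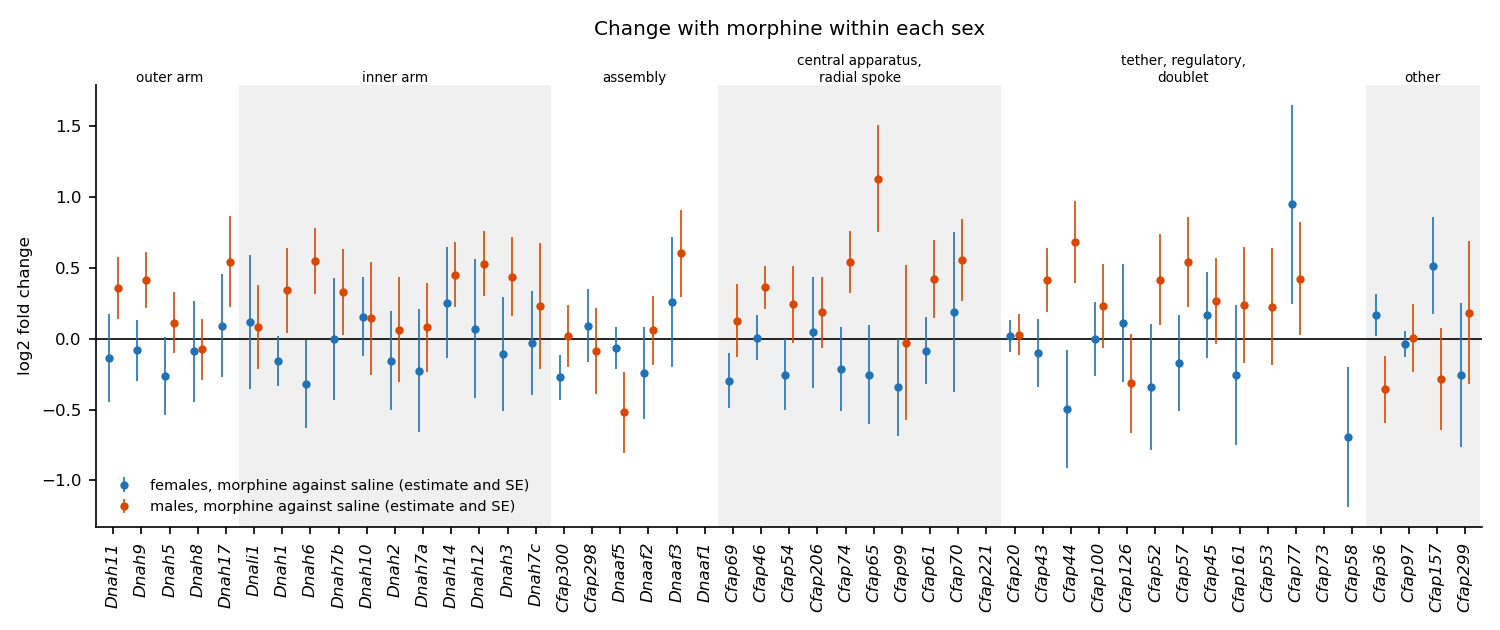
Log2 fold change of morphine against saline for each gene in females (blue) and in males (orange), with bars of 1 SE from edgeR and genes grouped by role. Genes with no point were not tested in that sex. Of 45 male values 38 lie above 0, and of 45 female values 16 do.

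The difference between the sexes was tested as the interaction of treatment and sex. It passed for 2 of 46 tested genes, with 2.94% of all 19027 genes passing, and the adjusted p was 0.9846 for both in edgeR. *Cfap65* changed more in males than in females by 1.40 ± 0.56 on the log2 scale (unadjusted p = 0.0276 in edgeR). *Cfap58*, known for its part in the sperm tail, differed by 1.84 ± 0.76 (unadjusted p = 0.0322 in edgeR), but it had only 1 to 18 counts per library. It measured 0.495, 0.304, and 0.51 CPM in saline females, 0.307, 0.375, and 0.11 CPM in morphine females, 0.149, 0.153, and 0.0306 CPM in saline males, and 0.327, 0.197, and 0.236 CPM in morphine males. The saline males were the low group, and saline male 3 had a single count. The change was larger in males for 39 of 46 genes, with a median difference of 0.37 against -0.03 over all genes. Without saline female 6 this held for 30 of 46 genes, with a median difference of 0.171 against -0.068 over all genes. Leaving out any other single library gave medians of 0.327 to 0.461. Neither the *Cfap65* nor the *Cfap58* call survived leaving out saline female 6 or morphine female 3, where 0 genes passed. *Cfap65* also did not pass without morphine female 2 or morphine male 5. *Cfap58* also did not pass without saline male 3, saline female 4, or morphine male 4.

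Libraries differed from each other across the whole set, within groups as well as between them. Morphine males 4 and 5 were the highest library for 9 genes each and saline female 6 for 8, and these 3 libraries lay above the mean of the gene in 41, 39, and 39 of the 49 genes. Saline male 3 was the lowest library for 11 genes, morphine females 2 and 3 for 8 each, and saline female 4 for 7. The mean of log2(CPM + 0.05) relative to the mean of each gene ran from -0.301 in saline female 4 to 0.314 in morphine male 4. It was -0.301, -0.181, and 0.264 in saline females 4 to 6, 0.0216, -0.294, and -0.113 in morphine females 1 to 3, 0.0932, 0.0456, and -0.243 in saline males 1 to 3, and 0.314, 0.252, and 0.142 in morphine males 4 to 6. All 3 morphine males were above all 3 saline males, while the female groups overlapped.

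**Figure D4:**
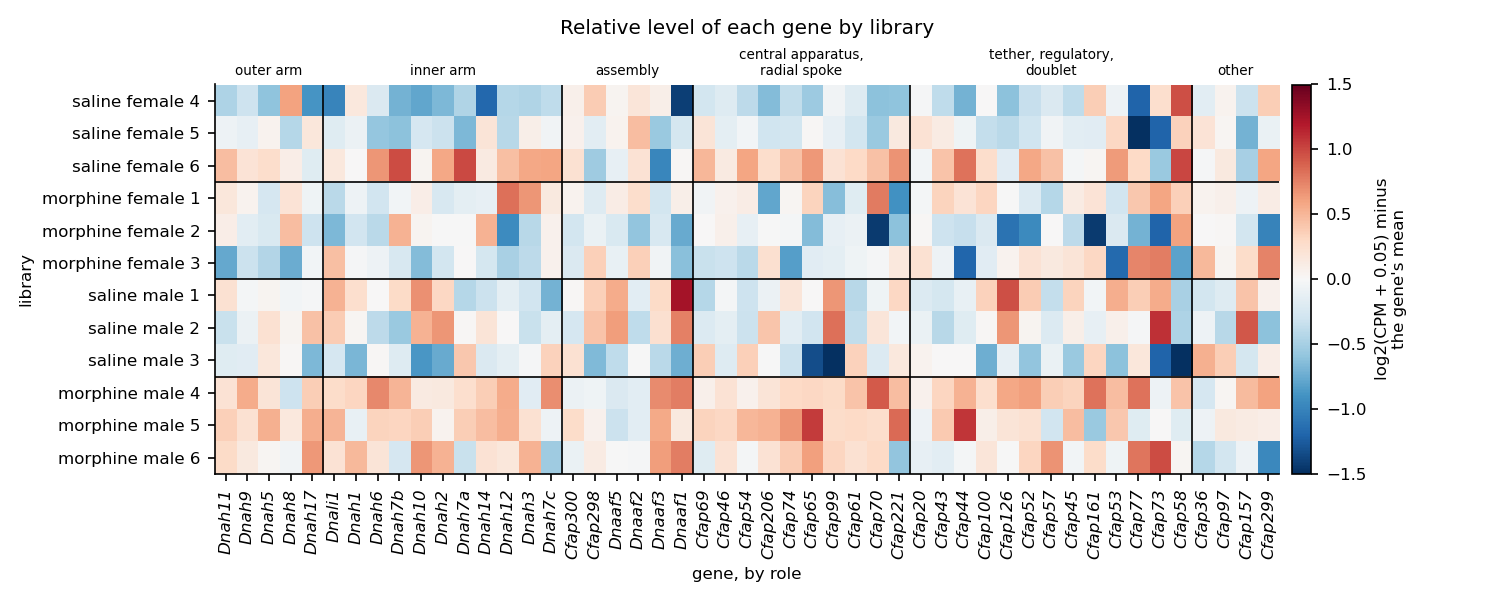
Relative level of the 49 genes in the 12 libraries, as log2(CPM + 0.05) minus the mean of the gene, with libraries in rows by group and genes in columns by role. Red is above and blue below the mean, with colors ending at 1.5 either way. Saline female 6 and the morphine males are mostly red, and saline female 4 and morphine female 2 mostly blue.

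Markers of the choroid plexus moved with the set, and their part in these results was not tested. Their summed level was 28.6 to 519 CPM in saline females, 48.8 to 191 CPM in morphine females, 307 to 557 CPM in saline males, and 448 to 897 CPM in morphine males. *Ttr*, the transthyretin gene that defines this epithelium, ran from 1.28 CPM in saline female 4 to 774 CPM in morphine male 5. The 3 libraries in which these cilia genes were highest held 519 (saline female 6), 832 (morphine male 4), and 897 CPM (morphine male 5) of these markers, and saline female 4, the lowest, held 28.6 CPM. In males 7 of 12 tested markers passed upward by the unadjusted threshold (*Folr1*, *F5*, *Slc4a5*, *Clic6*, *Otx2*, *Aqp1*, and *Kl*). Their median log2 fold change over all 12 was 0.74, and 2.99% of all genes passed. In females 1 of 12 passed, *F5*, which fell, with a median of -0.75, while 1.81% of all genes passed. In the interaction *F5* and *Kl* passed, with 2.94% of all genes. None passed in the sex-combined fit, where the median was 0.05 and 1.19% of all genes passed. No adjusted p was under 0.05.

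No ependymal marker passed. Of 9 tested in each of the 4 fits 0 passed in edgeR, none with an unadjusted p under 0.05, and in males 4 were positive and 5 negative, with medians of -0.05 in males and 0.01 in females. *Foxj1* measured 10.8, 12.9, and 2.76 CPM in saline males and 4.28, 5.8, and 7.79 CPM in morphine males, so that its highest levels were in saline males 1 and 2 and the groups overlapped. *Ccdc153* measured 1.01, 0.831, and 0.337 CPM in saline males and 1.13, 1.18, and 0.856 CPM in morphine males (log2 fold change 0.52 ± 0.40, unadjusted p = 0.235 in edgeR), and *Tmem212* 0.924, 0.547, and 0.429 against 0.743, 0.885, and 1.06 CPM (0.50 ± 0.35, unadjusted p = 0.2 in edgeR). Both overlapped, with the higher mean in morphine males. The summed ependymal list, most of it *S100b*, was 419 to 514 CPM in saline females, 458 to 523 CPM in morphine females, 391 to 561 CPM in saline males, and 393 to 421 CPM in morphine males. *Mia* was at or near 0, with 0 to 8 counts per library. Among other cell types, 3 of 5 cerebellar granule cell markers rose in males and in the sex-combined fit (*Gabra6*, *Fat2*, and *Cbln3*), and *Fat2* passed in the interaction. Their summed level was 58.3 to 68.5 CPM in saline males and 70.2 to 116 CPM in morphine males. Of 7 meningeal fibroblast markers, *Dcn*, *Slc6a13*, and *Aldh1a2* fell in females, *Dcn* in the sex-combined fit, and *Slc6a13* and *Aldh1a2* passed upward in the interaction. Of 6 oligodendrocyte markers *Mobp* fell in males, where all 6 log2 fold changes were negative (median -0.34, against -0.06 over all genes). All 6 astrocyte markers were also negative in males (median -0.17). No marker of neurons, astrocytes, or microglia passed in any fit. These marker calls are by the unadjusted threshold, and no adjusted p was under 0.05. Of all genes 2.99% passed in males, 1.81% in females, 2.94% in the interaction, and 1.19% in the sex-combined fit.

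**Figure D5:**
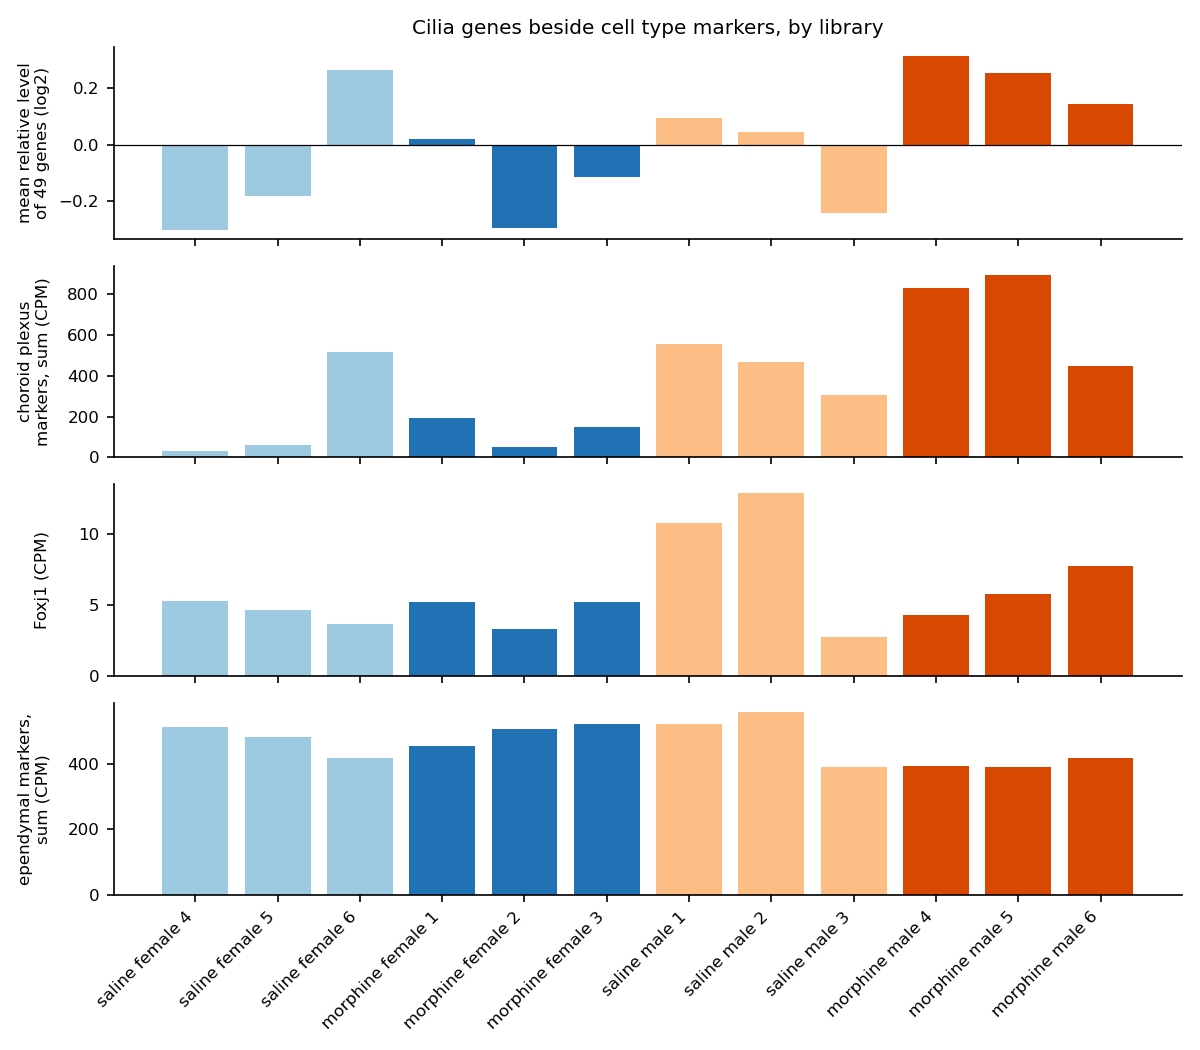
Mean relative level of the 49 cilia genes (log2), summed CPM of 12 choroid plexus markers, CPM of *Foxj1*, and summed CPM of 10 ependymal markers, with 1 bar per library colored by treatment and sex. Morphine males 4 and 5 are high in the first 2 panels, and *Foxj1* is highest in saline males 1 and 2.

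Other genes of the motile cilium, outside the naming rule, were taken from a list. Of 67 listed, 63 were in the table and 59 were tested in males, where 3 rose and 1 fell. Of all genes 2.99% passed in males, 1.81% in females, 2.94% in the interaction, and 1.19% in the sex-combined fit. *Spag17* and *Spag16*, both central apparatus genes, rose by 1.27 ± 0.38 and 0.91 ± 0.34 on the log2 scale (unadjusted p = 0.0126 and 0.0312 in edgeR), and *Ccdc146* by 0.59 ± 0.24 (unadjusted p = 0.0427 in edgeR). *Spag17* was low, at 0.123 to 0.284 CPM in saline males and 0.443 to 0.565 CPM in morphine males, without overlap. *Dynll1*, a dynein light chain that cytoplasmic dynein and many other complexes also use, fell by 0.42 on the log2 scale. The median over these genes in males was 0.14, against -0.06 over all genes, and 42 of 59 were positive. In females 1 of 58 passed, *Wdr63*, an intermediate chain of the inner arm, at -1.66 ± 0.51 (unadjusted p = 0.00864 in edgeR). It also had the smallest interaction p of the list (2.33 ± 0.62, unadjusted p = 0.0028 in edgeR). *Wdr63* was low, with 17, 13, and 29 counts in saline females 4 to 6 and 9, 4, and 4 counts in morphine females 1 to 3. In the interaction *Ccdc146*, *Spef2*, and *Dynll1* passed besides it, so that 4 of 59 passed. In the sex-combined fit 1 of 59 passed, *Wdr66*, a radial spoke gene, which rose (0.38 ± 0.17, unadjusted p = 0.0432 in edgeR). No adjusted p was under 0.05.

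Regulators of the multiciliated programme did not pass in any fit. Of 16 listed, 15 were in the table and 11 were tested in the sex-combined fit. *Rfx3*, which encodes an X-box binding factor, ranged from 24.5 to 37.8 CPM and *Rfx2* from 0.613 to 2.15 CPM. The inducers *Mcidas* (1 to 8 counts per library) and *Ccno* (2 to 13) were near the limit of detection. *Gmnc*, which starts the programme, measured 3.04, 2.34, and 3.03 CPM in saline males and 3.89, 6.16, and 2.24 CPM in morphine males, with overlap.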

How the data were processed

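Brainstem RNA from 12 mice was measured by poly-A RNA sequencing, 1 library per mouse (100 bp single-end reads). The authors used Trimmomatic for trimming, STAR for alignment to mm10, and featureCounts with an Ensembl GRCm38 annotation for counting over exons. The deposited values are raw counts per gene, unnormalized, with 27850565 to 48097947 per library. Groups came from the labels. The labels call the tissue brainstem, while the deposited extraction text names spinal cords. The labels do not give the dam of each mouse.

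All genes were fitted in edgeR 4.0.16 under R 4.3.3 by quasi-likelihood (TMM, filterByExpr), once with sex as covariate, once per sex, and once with a treatment-by-sex term, and p values were adjusted by Benjamini-Hochberg over all genes. Levels are CPM with TMM factors over 12 libraries, per kb of union exon length in GENCODE M21 where genes are compared. The fits were tested on simulated data. Named genes were those passing in a fit, the most abundant and smallest-p gene of each role, the 3 highest and 3 lowest, the untested ones, and the markers and regulators that passed or define a list. The members and lists were chosen with earlier results of these data known. Alternatives included DESeq2 1.42.0, and those on groups that do not overlap were added after seeing the data. By the study's methods saline and morphine pups shared litters, and its design text names dam as a covariate. Dam was not fitted here, so mice of different groups may be littermates.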

Additional observations from a re-analysis of the deposited data

Results flagged for a closer look

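Dixon's test put 3 values far from the other 5 libraries of their treatment at its 95% critical value, among 40 groups of 6 examined for 20 genes, where chance flags about 1 in 20. *Cfap97* was at 35.8 CPM in the library labelled morphine male 6, under the other morphine libraries. *Dnah11* was at 1.91 CPM in morphine female 3, the lowest of the 12 libraries. *Dnah14* was at 0.699 CPM in saline female 4, also the lowest of the 12.

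For 2 of 46 tested genes the interaction of treatment and sex passed unadjusted in edgeR, while 2.94% of all 19027 genes did. The change in males minus that in females was 1.40 on the log2 scale for *Cfap65* (unadjusted p = 0.0276) and 1.84 for *Cfap58* (unadjusted p = 0.0322). The adjusted p was 0.985 for both. *Cfap58* had 1 to 18 counts per library. Neither call held without saline female 6 or without morphine female 3.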

How the results depend on the processing

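Counts of genes that passed depended on the settings. In males 3 passed in the main analysis (2.99% of all genes), 2 with no filter on low counts (2.83%), 3 with exactTest (2.98%) and in 1 fit of all 12 libraries (4.15%), 5 with the Wald test of DESeq2 (2.94%) and with at least 10 counts in every library (2.79%), 6 with the size factors of DESeq2 in edgeR (2.98%), and 9 under scaling by total counts (4.44%), all upward. *Cfap65* passed in each of these. *Cfap46* did not with exactTest (unadjusted p = 0.104 in edgeR) or no filter (unadjusted p = 0.121), nor *Cfap74* with no filter (unadjusted p = 0.0588) or in the fit of all 12 libraries (unadjusted p = 0.0645). Leaving out each male in turn gave 1 to 10 (10 without saline male 3, of which 9 were upward, with 28.6% of all genes, and 1 without morphine male 4 or 5). Without saline male 3, 2 genes of the set had an adjusted p under 0.05 in edgeR, *Dnaaf5* downward (0.0262) and *Cfap61* upward (0.0472). So did 2141 of all 18652 genes. The share of all called genes with the higher level in morphine males was 64.3% under TMM and 91.3% under total counts, 51.1% and 72.7% in the sex-combined fit, and 54.7% and 81.2% in the interaction. In females 2 passed with no filter (3.15% of all genes), and 0 to 2 when a library was left out. In the sex-combined fit 0 to 4 passed when a library was left out (4 without saline female 6, 2 without saline male 3, with 2.21% and 2.42% of all genes). In the interaction 5 passed with no filter (4.44% of all genes), 1 with at least 10 counts in every library (2.57%), and 0 to 7 when a library was left out (7 of 46 without saline male 3, where 24.1% of all genes passed). The median log2 fold change with a library left out was 0.0594 to 0.248 in the sex-combined fit, -0.186 to 0.131 in females, and 0.234 to 0.349 in males. In the interaction the median difference ran from 0.171 (without saline female 6) to 0.461. The number of genes with every morphine library higher was 11 to 15 in males and 1 to 7 in females (7 without saline female 6) when a library was left out, and with every one lower 0 to 4 and 2 to 4, while the shares of all genes rose to at most 18% higher and 30.5% lower in males and 13.6% and 9.97% in females. Under total counts the 2 genes lower in females became 0. With the replicate block 0 genes passed and the median was 0.135. The correlations of same-numbered libraries ran from -0.356 to 0.18. Each rests on a single male and a single female, so whether the numbers pair the mice cannot be decided from them. No block could be fitted to the interaction or within a sex, where no number is shared. In the sex-combined fit direction turned for 7 genes that had not passed, with values between -0.2 and 0.269. *Cfap97* gave -0.00441 with the Wald test of DESeq2, -0.00451 with its size factors, and -0.00535 with no filter. Leaving out single libraries gave -0.0739 to 0.101 for *Cfap97*, -0.014 to 0.0812 for *Cfap20*, -0.2 to 0.0612 for *Cfap36*, -0.16 to 0.029 for *Cfap69*, -0.09 to 0.269 for *Dnah7c*, -0.177 to 0.0656 for *Dnah8*, and -0.0784 to 0.218 for *Dnali1*. The causes were not tested. Low counts limit *Cfap58*, *Cfap77*, and *Dnaaf3*, and 18 of the 49 genes averaged under 1 CPM.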
